A study of Mus musculus with 8 samples.

Results

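Wt1, Bnc1 and Tbx18 are transcription factor genes of the mesothelium, and Wt1os is the antisense RNA gene that starts beside Wt1. They were chosen by name, as the rows of the deposited count table whose identifiers carry these symbols in the GENCODE vM25 annotation. All 4 were found among the 55401 genes of the table, and all 4 passed the filter on low counts. RNA was sequenced from whole embryonic mouse lung at E13.5, in 4 libraries whose genotype label is cre control and 4 whose genotype label is Tbx4tetOcre_MyrfE6_mutant. The mutant label joins a Cre system named after Tbx4, a T-box gene of lung mesenchyme, and the tetracycline operator to an allele of Myrf, the gene of a membrane-bound transcription factor. What the allele is, which cells recombined and which of these alleles the controls carried is not explained in the labels, and neither are the sex, number and litter of the embryos. P-values therefore measure only the spread between these libraries, which may in part be technical.

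The mesothelium is a single layer of epithelium that covers the lung as visceral pleura, the heart as epicardium, and lines the body cavity. WT1 is a zinc finger protein that marks this layer during development and is needed for the formation of kidney, gonad and epicardium. BNC1, or basonuclin 1, is a zinc finger protein also known from basal keratinocytes and germ cells. TBX18 is a T-box protein, mostly a repressor, known from epicardium, mural cells and the mesenchyme of ureter and somites. In bulk RNA from a whole lung, fewer mesothelial cells and less RNA per cell cannot be told apart.

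Total counts per library ranged from 17799899 to 19032389 in the controls and from 17819285 to 48679134 in the mutants, mutant replicate 2 being the deepest. The check of the labels was Myrf itself, which was detected at 114 ± 5.64 CPM (counts per 1000000 counts after scaling, mean ± SD, n = 4) in the controls and 88.4 ± 4.17 in the mutants, a log2 fold change of -0.37 with an adjusted p of 0.000210 in edgeR. Summed over all exons and all cells of the lung, the level of Myrf does not show recombination or loss of function. The first principal component of all tested genes held 26.7% of the variance, and on it the replicates numbered 4 of both groups lay close together, at -4.96 for the control and -4.12 for the mutant, apart from the remaining mutants at 12.5 to 23.9. Of 15788 genes tested, 236 passed an adjusted p of 0.05 in edgeR, 147 lower and 89 higher in the mutants.

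The loci differ in layout, and the sequences at their starts are shown for that reason. On GRCm38, the table placed Wt1 (ENSMUSG00000016458.15) on the plus strand at chr2:105126529-105173616, and Wt1os (ENSMUSG00000074987.9) on the minus strand at chr2:105076538-105126510. The gene type of Wt1os is antisense in a GENCODE release earlier than the one used for the counts. The 2 genes run head to head, with 18 bases between their starts and 0 shared exon bases, and reads were counted by strand. In the stretch below the 18 bases between the starts are in capitals. The bases before them are the beginning of Wt1os on the opposite strand, and Wt1 begins after the last base.
Wt1os to Wt1 start, chr2:105126461-105126528, plus strand: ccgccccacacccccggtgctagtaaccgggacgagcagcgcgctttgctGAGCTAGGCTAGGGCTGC

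Bnc1 (ENSMUSG00000025105.10) was placed on the minus strand at chr7:81966653-81992307, and Tbx18 (ENSMUSG00000032419.8) on the minus strand at chr9:87702800-87731260. The 100 bases before each start are given to show how unlike the 2 promoters are in base composition, with matches to the GC box GGGCGG, on either strand, in capitals.
Bnc1 promoter, chr7:81992308-81992407, minus strand: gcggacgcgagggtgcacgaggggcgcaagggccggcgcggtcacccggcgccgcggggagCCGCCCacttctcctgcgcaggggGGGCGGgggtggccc
Tbx18 promoter, chr9:87731261-87731360, minus strand: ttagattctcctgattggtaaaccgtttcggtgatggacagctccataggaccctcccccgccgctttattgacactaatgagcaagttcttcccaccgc

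In the RefSeq promoter table for GRCm38.p6, which covers 250 bases before to 50 bases after a start, 3 of the 4 genes were matched, Wt1os, Bnc1 and Tbx18. Their windows held 66.7%, 83.3% and 51.7% G or C, against a median of 52.7% over 32817 promoters. The Bnc1 window was richer in G and C than 99.7% of promoters, and the Tbx18 window lay in the middle of the range, above 45.4% of them. The motif GGGCGG, searched on both strands, was found 6 times in the Bnc1 window, 2 times in that of Wt1os and 0 times in that of Tbx18, and 35.6% of all promoters held it. Searches on both strands for CTGGCAC and CTGGTAC, letters described for the MYRF site, found 0 matches in the 3 windows, against 5.01% and 2.24% of all promoters. The letters GCGTGGGAG of a WT1 site and AGGTGTGA of a T-box site also gave 0 matches, against 0.472% and 1.27% of promoters.

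WT1 protein exists in forms that differ by 3 amino acids, KTS, between its last zinc fingers, and the exon ends that give them are shown because the counts cannot separate them. In the annotation, 4 exon entries of Wt1 ended at chr2:105170018 and 2 ended 9 bases earlier, at chr2:105170009. The 9 bases between these ends are in capitals, with 18 bases of the exon before them and 18 bases of the next exon, which begins at chr2:105172223, after them.
Wt1 exon end with the 9 bases: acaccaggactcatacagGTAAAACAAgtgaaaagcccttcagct
Wt1 exon end without the 9 bases: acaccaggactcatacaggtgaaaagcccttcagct
A further exon of 51 bases, at chr2:105144142-105144192, is also present in only some transcripts. Counts were deposited per gene, so all forms of Wt1 are summed in the values that follow.

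Wt1 and Wt1os fell in the mutant lungs, Bnc1 was lower in every mutant library without passing the test, and the groups overlapped for Tbx18. Wt1 stood at 61.6% of its control level, Wt1os at 54.1%, Bnc1 at 74.7% and Tbx18 at 87.3%. In edgeR's quasi-likelihood test with Benjamini-Hochberg adjustment over all 15788 genes, 2 of the 4 genes passed, both lower, where 1.49% of all genes passed in either direction and 0.931% passed as lower. The log2 fold change was below 0 for all 4, as for 50% of all genes tested, and its median over the 4 was -0.57 beside 0.00 over all genes. For 3 of the 4 every mutant library lay below every control library, a separation that 4.06% of all genes showed in this direction and 7.37% in either. The same 3 had an unadjusted p below 0.05 in edgeR, where 13.9% of all genes did, 7.99% as lower and 5.89% as higher.

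Wt1 was measured at 20.7, 17.5, 20.4 and 20.4 CPM in the 4 controls, by replicate number, and at 14.2, 11.1, 10.8 and 12.5 CPM in the 4 mutants. Every mutant library was below the lowest control, which was replicate 2, and the highest mutant was replicate 1. The means were 19.7 ± 1.52 and 12.2 ± 1.57 CPM (SD, n = 4). The log2 fold change was -0.70 (SE 0.0898, 95% interval -0.89 to -0.51), with an adjusted p of 0.000424 in edgeR. By p it ranked 12 among all genes tested. Its counts ran from 221 to 543 per library, and its control level was above that of 45.7% of tested genes. The call held in all 20 alternative fits, with log2 fold changes between -0.78 and -0.65.

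Wt1os, whose RNA is transcribed away from Wt1 from the opposite strand, was measured at 2.43, 2.03, 3.33 and 3.33 CPM in the 4 controls, by replicate number, and at 1.62, 1.23, 1.76 and 1.41 CPM in the 4 mutants. Controls fell into a lower pair, replicates 1 and 2, and a higher pair, replicates 3 and 4, and all mutants lay below both. The means were 2.78 ± 0.656 and 1.503 ± 0.232 CPM (SD, n = 4), and the log2 fold change was -0.91 (SE 0.201, 95% interval -1.33 to -0.48), with an adjusted p of 0.0309 in edgeR. The gene rested on 25 to 60 counts per library. Its call held in 12 of 20 alternative fits and was lost without control replicate 1 (adjusted p = 0.0528), 3 (0.116) or 4 (0.0637), without mutant replicate 2 (adjusted p = 0.121), with a Y-linked covariate (adjusted p = 0.127) and in 3 further fits. The log2 fold change stayed between -1.03 and -0.79 in these fits.

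Bnc1 was measured at 7.50, 6.03, 6.66 and 5.81 CPM in the 4 controls, by replicate number, and at 5.72, 4.30, 4.39 and 5.01 CPM in the 4 mutants. The groups were separated by a narrow gap, from 5.72 CPM in mutant replicate 1 to 5.81 CPM in control replicate 4. The means were 6.50 ± 0.757 and 4.86 ± 0.655 CPM (SD, n = 4), with a log2 fold change of -0.43 (SE 0.125, 95% interval -0.69 to -0.17). Its unadjusted p in edgeR was 0.00299 and its adjusted p 0.0925. Bnc1 passed in 2 of 20 alternative fits, among them the fit with no filter on low counts (adjusted p = 0.0443), and its adjusted p ranged from 0.0435 to 0.311 over the 20. An antisense gene that overlaps its start, 4833418N17Rik, had 0 to 2 counts per library.

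Tbx18 was measured at 3.22, 2.88, 3.95 and 3.61 CPM in the 4 controls, by replicate number, and at 2.84, 2.62, 3.37 and 3.09 CPM in the 4 mutants. Only 2 mutants, replicates 1 and 2, lay below the lowest control, and mutant replicate 3 lay above 2 of the controls. The means were 3.41 ± 0.468 and 2.98 ± 0.322 CPM (SD, n = 4), and the log2 fold change was -0.21 (SE 0.149) with an adjusted p of 0.582 in edgeR. The 95% interval ran from -0.53 to 0.10 and so included both no difference and a decrease as large as the value for Bnc1. Tbx18 passed in 0 of 20 alternative fits, DESeq2 and limma-voom among them. The antisense gene over its start, D030062O11Rik, had 1 to 7 counts per library.

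**Figure D1:**
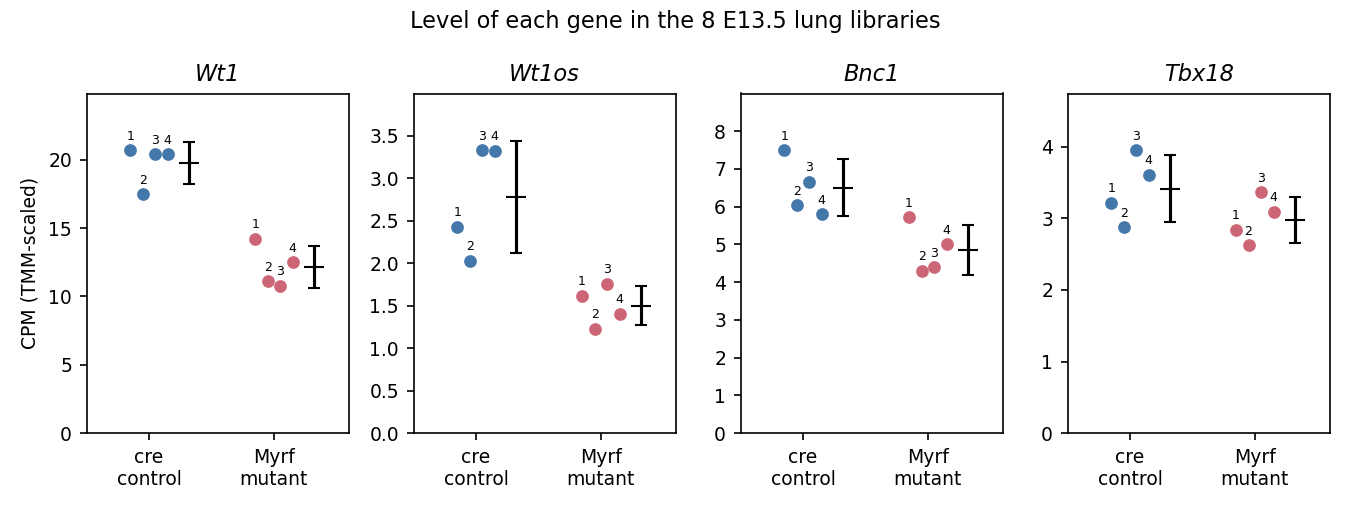
Level of Wt1, Wt1os, Bnc1 and Tbx18 in each library, in TMM-scaled CPM, with 1 point per library, 4 control and 4 mutant libraries per panel, and the mean ± SD of each group. For Wt1 the mutants reach at most 14.2 CPM and the controls start at 17.5 CPM, whereas for Tbx18 the groups overlap.

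Set against exon length, control levels ran in the order Wt1, Bnc1, Tbx18 and Wt1os, with 3.19 ± 0.245, 1.39 ± 0.162, 0.724 ± 0.0992 and 0.664 ± 0.157 CPM per kb (SD, n = 4). The lowest control value of Wt1, 2.82 CPM per kb, was above the highest of Bnc1, 1.602, and the lowest of Bnc1, 1.24, was above the highest of Tbx18, 0.838. Tbx18 and Wt1os did not differ beyond their spread in the controls, where Wt1os ranged from 0.485 to 0.797 CPM per kb. In the mutants the order was the same, at 1.96 ± 0.253, 1.04 ± 0.140, 0.632 ± 0.0682 and 0.359 ± 0.0555 CPM per kb. There Wt1os, at most 0.420 CPM per kb, no longer overlapped Tbx18, at least 0.556 CPM per kb.

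Whether the genes responded by different amounts was asked with ratios within each library, which do not depend on scaling between libraries. The difference in mean log2 ratio was tested by an exact two-sided permutation test over the 70 assignments of 4 and 4 libraries, whose smallest possible p is 0.0286, and adjusted over the 7 ratios computed. An adjusted p below 0.05 needed at least 5 of the 7 ratios at that smallest p. The log2 ratio of Wt1 to Bnc1 was 1.46, 1.53, 1.61 and 1.81 in the 4 controls, by replicate number, and 1.31, 1.37, 1.29 and 1.31 in the 4 mutants. All mutants lay below all controls, and the mean difference was -0.28 (exact permutation p = 0.0286, adjusted p = 0.0667). The log2 ratio of Wt1 to Tbx18 was 2.67, 2.59, 2.36 and 2.49 in the 4 controls, by replicate number, and 2.32, 2.08, 1.67 and 2.003 in the 4 mutants. This ratio was also lower in every mutant than in any control, with a mean difference of -0.51 (exact permutation p = 0.0286, adjusted p = 0.0667). Neither ratio passed after adjustment.

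The ratio of Wt1 to its antisense neighbour overlapped between the groups. The log2 ratio of Wt1 to Wt1os was 2.84 ± 0.276 in the controls and 3.004 ± 0.269 in the mutants (SD, n = 4), a difference of 0.16 (exact permutation p = 0.229, adjusted p = 0.267). On the linear scale Wt1 had between 6.08 and 8.51 times the counts of Wt1os in the controls and between 6.07 and 8.98 times in the mutants. The overlap came from mutant replicate 3, which lay just below all controls, while the other 3 mutants lay above all of them. Without that library the difference in log2 ratio was 0.29 (exact permutation, adjusted p = 0.3). The log2 ratio of Bnc1 to Tbx18 was 0.93 ± 0.252 and 0.70 ± 0.255 (SD, n = 4), and the groups overlapped (exact permutation p = 0.200, adjusted p = 0.267).

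A second set of ratios put each factor over the summed counts of 7 genes of the mesothelial surface, which encode membrane and secreted proteins of that layer. Upk3b and Nkain4 made up most of this sum, with means of 88.4 and 50.6 CPM in the controls, where the sum averaged 179 CPM. Their log2 fold changes differed, at -0.63 for Upk3b and -0.08 for Nkain4. The ratios therefore depend on how the genes of the sum are weighted, and ratios to single surface genes were not tested. The log2 ratio of Wt1 to this sum was -3.09, -3.30, -3.20 and -3.13 in the 4 controls, by replicate number, and -3.32, -3.56, -3.63 and -3.35 in the 4 mutants. Every mutant was below every control, with a narrow gap between control replicate 2 and mutant replicate 1, and the mean difference was -0.28 (exact permutation p = 0.0286, adjusted p = 0.0667). For Bnc1 the log2 ratio was -4.78 ± 0.163 in the controls and -4.78 ± 0.162 in the mutants (SD, n = 4), a difference of -0.0038 (exact permutation p = 1). For Tbx18 it was -5.71 ± 0.150 and -5.48 ± 0.181, a difference of 0.23 in the other direction (exact permutation p = 0.171, adjusted p = 0.267).

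**Figure D2:**
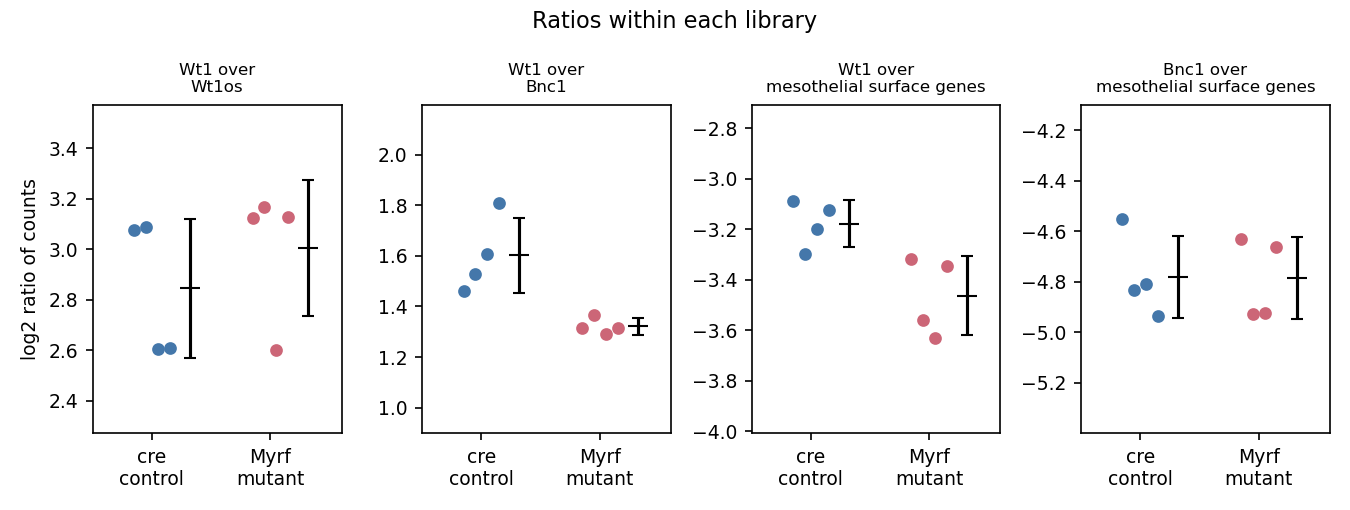
Log2 ratio of counts (plus 0.5) within each library for 4 of the 7 ratios, with 1 point per library and the mean ± SD of each group; the vertical axes span equal ranges and do not start at 0. The mutants lie below the controls for Wt1 over Bnc1 and Wt1 over the surface genes, and the groups overlap for Wt1 over Wt1os and Bnc1 over the surface genes.

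The surface genes themselves were measured beside the factors, since they mark the same layer. Of 7 listed, 3 fell and 0 rose in edgeR, against 0.931% and 0.564% of all genes. The median log2 fold change of the 7 was -0.39, with 6 values below 0 and 1 above. Upk3b, a uroplakin used as a marker of mesothelium, fell from 88.4 ± 3.49 to 57.0 ± 3.39 CPM (SD, n = 4), with a log2 fold change of -0.63 and an adjusted p of 1.08e-06. Gpm6a, a membrane glycoprotein, fell from 11.3 ± 1.03 to 6.48 ± 0.709 CPM, with a log2 fold change of -0.80 and an adjusted p of 0.000366 in edgeR. Lrrn4, a leucine-rich repeat membrane protein, fell from 14.2 ± 0.410 to 10.8 ± 1.13 CPM, with a log2 fold change of -0.39 and an adjusted p of 0.0258, and its call held in 13 of 20 alternative fits, not without control replicate 1, 2 or 3 or mutant replicate 2. Of the 4 that did not pass, Nkain4 had the highest CPM, 50.6 ± 2.99 and 48.0 ± 1.35 CPM (adjusted p = 0.523 in edgeR). Upk1b was at 9.74 ± 3.26 and 7.21 ± 1.73 CPM (adjusted p = 0.580 in edgeR). Muc16 was at 3.85 ± 0.350 and 3.27 ± 0.805 CPM (adjusted p = 0.579 in edgeR). Msln, the only one above 0, was low, at 0.723 ± 0.173 and 0.828 ± 0.315 CPM (log2 fold change 0.19, adjusted p = 0.847 in edgeR). Summed over the 7 genes, the level ranged from 172 to 188 CPM in the controls and from 127 to 142 CPM in the mutants, and no member was at 0.

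Other transcription factors of the coelomic epithelium and epicardium were measured beside them. Of 15 listed, 11 were expressed highly enough to be tested, and 0 passed in edgeR, in DESeq2 or in limma-voom. In edgeR 1.49% of all genes passed, so 0 of 11 says little. A single listed gene, Gata6, had an unadjusted edgeR p below 0.05, where 13.9% of all genes did, 7.99% as lower. Gata6 was at 61.7 ± 3.17 CPM in controls and 56.6 ± 1.32 in mutants (adjusted p = 0.202 in edgeR). The median log2 fold change was 0.05, with 5 values below and 6 above 0. The list did not hold Gata5, a GATA factor also known from epicardium and named after its values were seen, which fell from 108 ± 1.198 to 91.8 ± 4.61 CPM (log2 fold change -0.23, adjusted p = 0.00571 in edgeR) and passed in all 20 alternative fits, so the count of 0 holds for the listed genes only. Those with the highest CPM were Nr2f2, a nuclear receptor, at 203 ± 7.80 and 195 ± 10.4 CPM, and Meis1, a homeobox factor, at 195 ± 9.13 and 192 ± 6.22 CPM. Bnc2, the paralog of Bnc1, was at 3.39 ± 0.175 and 3.38 ± 0.694 CPM, with a log2 fold change of -0.03 where that of Bnc1 was -0.43.

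**Figure D3:**
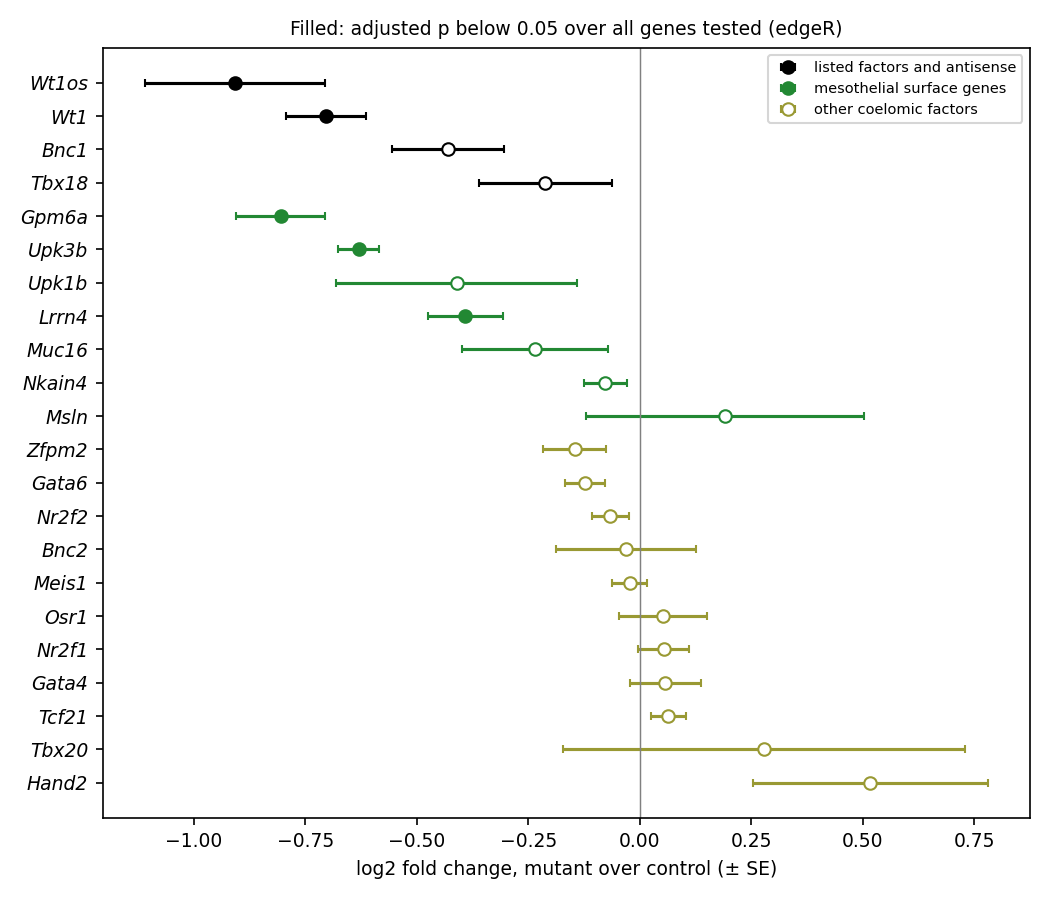
Log2 fold change, mutant over control, ± SE from the edgeR fit over 8 libraries, for the 4 genes, 7 surface genes and 11 tested coelomic factors; filled points passed an adjusted p of 0.05. Wt1, Wt1os, Gpm6a, Upk3b and Lrrn4 are filled, and none of the 11 coelomic factors is.

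Genes described as WT1 targets in kidney, gonad or epicardium were read next. Of 22 listed, 17 were tested, 1 fell and 1 rose in edgeR, against 0.931% and 0.564% of all genes, and the median log2 fold change was -0.04. At an unadjusted edgeR p below 0.05, 6 of the 17 were lower and 3 higher, against 7.99% and 5.89% of all genes. Snai2, a repressor active in epithelial-mesenchymal transition, fell from 198 ± 4.54 to 178 ± 5.06 CPM (SD, n = 4), with a log2 fold change of -0.15 (SE 0.0343) and an adjusted p of 0.0317, and this call held in 12 of 20 alternative fits, not without control replicate 1, 2 or 3 or mutant replicate 1 or 3. Wnt4, a secreted ligand of kidney and gonad development, was measured at 2.85, 4.85, 4.46 and 4.57 CPM in the 4 controls, by replicate number, and at 5.84, 8.36, 6.83 and 7.65 CPM in the 4 mutants. All mutants were above all controls, with a log2 fold change of 0.79 (SE 0.154) and an adjusted p of 0.0165 in edgeR, and the call held in 17 of 20 alternative fits, not without control replicate 3 (adjusted p = 0.0514) or mutant replicate 2 (0.0554). Nes, an intermediate filament gene, at 254 ± 12.7 and 229 ± 13.52 CPM, and Podxl, a sialomucin, at 186 ± 10.4 and 170 ± 6.22 CPM, had the highest CPM among those that did not pass (adjusted p = 0.106 and 0.121 in edgeR). Aldh1a2, the main enzyme of embryonic retinoic acid synthesis, chosen after its values were seen, had an adjusted p of 0.0871 at 84.1 ± 5.66 and 63.5 ± 8.86 CPM, and it passed in 5 of 20 alternative fits, among them without mutant replicate 1.

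The genes of 6 protein partners of WT1 were all tested, and 0 passed in edgeR, DESeq2 or limma-voom, with 0 at an unadjusted edgeR p below 0.05. Over all genes, 1.49% passed in edgeR and 13.9% had such a p, so 0 of 6 says little. Wtap, a subunit of the RNA methylation complex, was at 104 and 106 CPM, and Basp1, a corepressor of WT1, was at 96.7 and 93.0 CPM.

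Among 16 other T-box genes, 9 were tested, and 1 rose and 0 fell in edgeR, against 0.564% and 0.931% of all genes. The same counts, 1 higher and 0 lower, were found in DESeq2 and limma-voom. They were also found at an unadjusted edgeR p below 0.05, against 5.89% and 7.99% of all genes. Tbx1, a factor of pharyngeal and respiratory development, rose from 28.1 ± 1.94 to 35.5 ± 2.06 CPM (SD, n = 4), with a log2 fold change of 0.34 and an adjusted p of 0.00852, and passed in all 20 alternative fits. Those of the family with the highest CPM were Tbx2, at 404 ± 45.7 and 417 ± 21.4 CPM, and Tbx4, at 272 ± 5.99 and 262 ± 5.93 CPM (adjusted p = 0.506 in edgeR).

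Since WT1 and TBX18 also mark epicardium, kidney and gonad, and TBX18 mural cells, the markers of those sources were read in the same libraries. Kidney and gonad markers summed to 1.95 to 3.04 CPM in the controls and 2.52 to 3.61 CPM in the mutants. Of these 8 genes 2 were tested, Pax8 had 0 counts in all libraries, and Nphs1, the podocyte slit diaphragm gene, had 2 counts in total. Heart muscle markers summed to 62.8 to 104 CPM in the controls and 91.3 to 145 CPM in the mutants. Most of this sum was Actc1 alone, at 61.0 ± 14.4 CPM in the controls and 70.1 ± 10.2 CPM in the mutants (SD, n = 4). The mean sums were 84.3 and 111 CPM. All 6 tested heart genes had a log2 fold change above 0, with a median of 0.53, where 50% of all genes were below 0. Myh6 was at 33.8 CPM in mutant replicate 1, above every other library. Tnnt2 and Actc1 were also highest there, and Myl7, Myl4 and Myh7 in other mutants. Among the mutants this library had the highest Wt1 and Bnc1, but not the highest Wt1os or Tbx18. In edgeR and limma-voom 0 heart genes passed. Tnnt2 alone had an unadjusted edgeR p below 0.05, where 5.89% of all genes did as higher. In DESeq2 1 heart gene passed as higher, where 140 of 15788 genes did. The ranges of the heart markers overlapped, with the higher values in mutants. Whether any heart tissue was attached, and whether it added to the values of the 4 genes, was not tested.

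Markers of pericytes and mural cells summed to 596 to 669 CPM in the controls and 581 to 667 CPM in the mutants, and 0 of 6 tested passed in edgeR, DESeq2 or limma-voom, with 0 at an unadjusted edgeR p below 0.05. Markers of stratified and basal epithelium, where BNC1 is also known, summed to 5.23 to 14.7 CPM in the controls and 6.23 to 8.16 CPM in the mutants, and 0 of 4 passed in edgeR, DESeq2 or limma-voom, with 0 at an unadjusted edgeR p below 0.05. Lung mesenchyme markers summed to 915 to 961 CPM in the controls and 908 to 949 CPM in the mutants, and 0 of 6 passed in edgeR. At an unadjusted edgeR p below 0.05, 1 was lower, Fgf10, and 1 higher, Pdgfra, against 7.99% and 5.89% of all genes. Lung epithelium markers summed to 521 to 585 CPM in the controls and 558 to 592 CPM in the mutants. In edgeR 1 of these 6, Sox2, rose, against 0.564% of all genes. At an unadjusted edgeR p below 0.05, 2 were higher, Sox2 and Foxa2, and 0 lower, against 5.89% and 7.99% of all genes. Liver markers summed to 2.43 to 7.50 CPM in the controls and 4.25 to 20.5 CPM in the mutants, and skeletal muscle markers to 4.96 to 5.36 and 5.05 to 9.17 CPM, with 0 of 3 and 0 of 2 tested genes passing in edgeR, DESeq2 or limma-voom and 0 at an unadjusted edgeR p below 0.05. The markers of the labelled tissue were therefore present in all 8 libraries. Over all genes, 1.49% passed in edgeR and 13.9% had an unadjusted p below 0.05, so 0 calls in lists this small say little.

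Genes around the loci were counted within 500 kb. Of 25 genes around Wt1, 8 were tested and only Wt1os passed in edgeR, where 1.49% of all genes passed. Besides Wt1os, Tcp11l1 had an unadjusted edgeR p below 0.05 (0.0238, adjusted p = 0.263 in edgeR), at 7.93 ± 0.399 CPM in controls and 9.32 ± 1.01 in mutants. The other 7 had log2 fold changes between -0.33 and 0.24 with a median of 0.05. The nearest tested of them were Ccdc73, 108624 bases below, at 0.777 ± 0.0531 and 0.604 ± 0.204 CPM, and Rcn1, a calcium-binding protein gene 212674 bases above, at 192 ± 8.21 and 198 ± 4.21 CPM. Of 34 genes around Bnc1, 11 were tested and 0 passed in edgeR, with 0 at an unadjusted p below 0.05, which 13.9% of all genes had. With so few tested neighbours at each locus, the lack of further calls says little. The nearest tested gene, Hdgfl3, 32179 bases below, was at 45.3 ± 1.72 CPM in controls and 43.6 ± 1.86 in mutants, and Sh3gl3, 181532 bases above, was at 2.57 ± 0.514 and 2.34 ± 0.520 CPM. Of 11 genes around Tbx18, only Cep162 was tested, at a log2 fold change of 0.03. DESeq2 and limma-voom were not read for these neighbours.

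**Figure D4:**
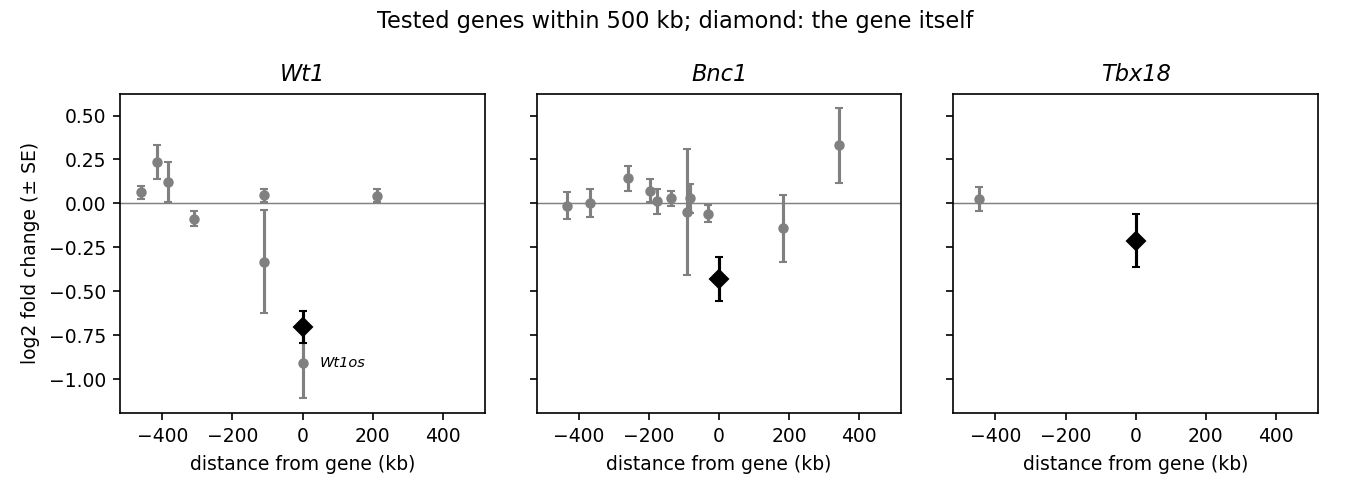
Log2 fold change, mutant over control, ± SE (edgeR, 8 libraries) of tested genes within 500 kb of Wt1, Bnc1 and Tbx18, against distance from the gene in kb, negative below and positive above it on the chromosome. Wt1os, 18 bases from Wt1, is at -0.91, while the other neighbours of Wt1 lie between -0.33 and 0.24.

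The genes whose levels varied most like each factor over the 8 libraries were ranked by Pearson r of log2 CPM among 12347 genes. These r values are a description: the points share libraries and depth, and a difference between the groups alone raises r. For Wt1 they were Npr3, the natriuretic peptide clearance receptor (r = 0.987), Kctd1 (0.982), Adamts20, a secreted protease (0.980), Lef1, a nuclear effector of Wnt signalling (0.975), and Zadh2 (0.975). After the group means were removed, r for these 5 genes was 0.906, 0.863, 0.857, 0.804 and 0.775. For Bnc1 they included Ptn, a secreted growth factor (r = 0.958), Map3k1, a kinase (0.955), Surf6 (0.946) and Sfrp2, a secreted Wnt antagonist (0.946). For Tbx18 they were Kank4 (r = 0.972), Spred3 (0.965), Dusp4, a phosphatase of MAP kinases (0.948), Dido1 (0.947) and Slc16a10 (0.940).

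Among the 4 genes, the pair with the highest r over 8 libraries was Wt1 and Bnc1, at 0.921, and 0.793 after removal of the group means. Wt1 and Wt1os had r = 0.877, which was 0.400 within groups. Wt1 and Tbx18 had r = 0.549, and 0.187 within groups, and Bnc1 and Tbx18 had 0.415 and -0.021. Tbx18 and Wt1os, the 2 genes with the fewest counts, had r = 0.839, and 0.890 within groups, the highest of the pairs by that measure. Against Myrf, Wt1 had r = 0.941 over the 8 libraries and 0.469 within groups.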

How the data were processed

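Lung RNA (TRIzol LS, then a micro column kit) went into stranded Illumina messenger RNA libraries, per the labels' protocols. The authors deposited raw counts per gene, with exon lengths. Per the file headers they used featureCounts 1.6.4, paired-end, strand option 2, exons of GENCODE vM25, without the options that keep multi-mapping reads or reads on several genes. The submitters' processing notes name STAR, DESeq2 and GRCm38 (mm10).

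The 8 libraries entered one edgeR 4.0.16 fit (R 4.3.3), with expression filter (15788 genes, 99.9% of counts), TMM scaling (factors 0.995 to 1.01), robust quasi-likelihood F test, no covariate, Benjamini-Hochberg over all tested genes, threshold 0.05. CPM are TMM-scaled. At these depths 3 counts are 0.0616 to 0.169 CPM, counting error only. Ratios used counts plus 0.5. Same-numbered libraries were not treated as pairs. No pair within a group was a duplicate (variance at least 2.92 times sampling). The steps were tested on simulated data: in 3 simulations of this comparison over 15788 genes they recovered 54.7% of genes changed 1.25-fold, 75.1% changed 1.5-fold and 87.9% changed 2-fold. The changed genes were drawn from all levels. These shares need not hold for Wt1os, Bnc1 and Tbx18, whose control levels were above those of only 20.5%, 29.8% and 22.8% of tested genes.

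The genes and lists were chosen with earlier results of these data known. In each list, genes that passed were named, up to 5, plus the 2 most abundant that did not. Near each locus, passing genes and the nearest on each side were named (below, tested genes only, since the adjacent ones had too few counts). Most-alike genes were the 5 with the highest r at a mean log2 CPM of at least 1 (prior count 2), without provisional names; a few results taken by these rules are not reported here. Alternatives, fixed with the tests, were other scalings, filters, DESeq2 1.42.0, limma-voom 3.58.1, covariates (sva 3.50.0) and libraries left out.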

Additional observations from a re-analysis of the deposited data

Results flagged for a closer look

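Dixon's criterion for 4 values (the gap to the nearest value over the range, at the 95% level) was applied to 24 groups of 4 libraries, and chance passes about 1 in 20. It marked 2 values as far from the rest of their group. Wt1 in control replicate 2 was 17.5 CPM where the other controls were 20.4 to 20.7 CPM. The log2 ratio of Wt1 to Wt1os in mutant replicate 3 was 2.60 where the other mutants were 3.12 to 3.17. Without control replicate 2 the fall of Wt1 passed in edgeR, with a log2 fold change of -0.76 in place of -0.70. Since this was the lowest control, leaving it out widens the difference and is no test of the fall.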

How the results depend on the processing

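Each of the 4 genes was refitted under 20 alternatives, and none changed sign. Wt1 passed in 20, with adjusted p between 2.81e-13 and 0.00394. Wt1os did not pass without robust estimation (-0.91, adjusted p = 0.0522), with 1 surrogate variable (-0.86, adjusted p = 0.119), with Y-linked level as covariate (-0.95, adjusted p = 0.127) or without both libraries numbered 4 (-0.80, adjusted p = 0.0676). With 1 library left out Wt1os ranged from -1.03 to -0.79 and lost the call without control replicates 1, 3 or 4 or mutant replicate 2. Bnc1 gained the call with no filter on low counts (-0.41) and ranged from -0.52 to -0.35 with 1 library left out. Same-numbered libraries deviated together with r of 0.0811, 0.0648, 0.181 and 0.0125, and 3 of 4 numbers matched best with their own. With the number as a replicate block Wt1 was -0.70 (adjusted p = 5.91e-05), Wt1os -0.86 (0.0153), Bnc1 -0.43 (0.0435) and Tbx18 -0.19 (0.535), and 541 genes passed. The count of 236 genes became 791 with no filter, 380 in DESeq2, 142 without robust estimation, 96 with 1 surrogate variable, 95 with the Y-linked covariate and 567 without both libraries numbered 4, and 96 to 479 with 1 library left out. With total counts in place of TMM it was again 236, but 126 lower and 110 higher. Lrrn4 and Snai2 lost their calls in some fits, and the same alternatives for genes outside the 4 were added after seeing the data. No ratio passed in any of its 12 alternatives, which says little. The sign flips by replicate number cannot go below 0.125. The permutation tests of means needed at least 5 of 7 ratios at their smallest p, and the limit for the difference of medians was not worked out. The ratio of Bnc1 to the surface genes changed sign with medians (0.0296) and without control replicate 1 (0.0729), mutant replicate 2 (0.0439) or mutant replicate 3 (0.0417), and ranged from -0.0553 to 0.0729 with 1 library left out. The cause was not tested. Depth limits Wt1os and Tbx18 most, at 25 to 60 and 51 to 128 counts per library.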
